A study of Mus musculus with 8 samples.

Results

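The E2F transcription factors and the pocket proteins that bind them were examined in SV-LECs exposed to TGFβ1. The genes were chosen by symbol, as the rows of the count table named E2f1, E2f2, E2f3, E2f4, E2f5, E2f7, E2f8, Rb1, Rbl1 and Rbl2. No symbol was repeated, and all 10 genes, of 55471 in the table, were among the 13818 that passed the filter on low counts and were tested. SV-LECs are a mouse lymphatic endothelial line that came from the adventitia of the mesentery and was immortalized with SV40, so the untreated and the treated cells share this background. One group of 4 libraries came from cells left untreated, and the other group of 4 came from cells given TGFβ1 at 10 ng/ml for 72 h. Poly(A) RNA was read in single reads of 75 bases, which the authors counted per gene. The study calls the 4 samples of a group technical replicates of the 1 line, so errors and p-values below cover the spread between these libraries only.

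E2F proteins bind the promoters of genes for DNA replication and cell division, mostly together with a DP protein. E2f1, E2f2 and E2f3 are known as activators, E2f4 and E2f5 as repressors that work with pocket proteins in resting cells, and E2f7 and E2f8 as atypical repressors that bind neither DP nor pocket proteins. The pocket proteins pRB (Rb1), p107 (Rbl1) and p130 (Rbl2) bind E2Fs and hold their target genes off until cyclin-dependent kinases phosphorylate them. TGFβ1 is known to halt the cycle of many cell types through this system. The large T antigen of SV40 binds all the pocket proteins, which limits SV40-immortalized cells as a model of it. The T antigen itself was not analysed here.

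Total counts were between 18952504 and 26386941 per library. Pdpn and Flt4 were counted in every library, but 4 of 6 lymphatic endothelial markers had at most 3 counts in each library, among them Prox1 and Lyve1, and Ccl21a was at 0. Of 6 markers shared by endothelial cells, Tie1 was at 0 and Cdh5 had at most 3 counts. Pecam1 had 1 to 5 counts per library and Tek 8 to 18. The summed level of the lymphatic list was 344 to 381 CPM (read counts divided by the TMM-normalized library size and scaled alike in all libraries) in untreated and 337 to 348 in TGFβ1-treated libraries. Markers of fibroblasts and mural cells summed to 496 to 541 CPM in untreated and 207 to 233 in TGFβ1-treated libraries, those of epithelial cells to 34.2 to 40.7 and 38 to 45.1, and those of leukocytes to 5.88 to 7.82 and 14.9 to 17.0. The fibroblast and mural markers did not move together: Dcn and Pdgfra, the most abundant, were lower (log2 fold changes -1.91 and -1.47), while Pdgfrb and Des were higher (0.63 and 2.09). Of the 5 leukocyte markers, 4 had at most 3 counts in each library, so that sum was nearly all Cd68. The lymphatic sum was nearly all Pdpn, which was lower (log2 fold change -0.13), while Flt4 was higher (0.44). The epithelial sum was mostly Krt14, which was not called. Krt8 and Krt18 were higher (log2 fold changes 1.99 and 2.47) at low levels, with treated means of 1.11 and 1.24 CPM. Endothelial markers summed to 28.2 to 31.0 CPM in untreated and 61.0 to 68.3 in TGFβ1-treated libraries, nearly all from Kdr and Flt1. Marker genes are named here because of their values. The part of these shifts in the results was not tested. Among genes that TGFβ1 is known to induce, 6 of the 7 listed could be tested and all of these were higher, with a median log2 fold change of 1.27.

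After TGFβ1, E2f1, E2f2, E2f7, E2f8 and Rbl1 were lower, and Rb1, E2f5, E2f3 and, by the smallest step, Rbl2 were higher. E2f8 fell by 60.3%, the most among the 10 genes, and Rb1 rose the most, by 72.2%. E2f4 was not significantly changed. By edgeR's likelihood ratio test 9 of the 10 genes passed a false discovery rate (FDR, Benjamini-Hochberg) of 0.05, 4 higher and 5 lower. Among all genes tested 75.6% passed, 37.6% higher and 38% lower, so the number of genes that changed is not particular to this family. The groups did not overlap in 8 of the 10 genes (3 higher, 5 lower), and in 69.8% of all genes tested. In bulk RNA a smaller share of cells expressing a gene and less of its RNA per cell cannot be told apart.

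**Figure D1:**
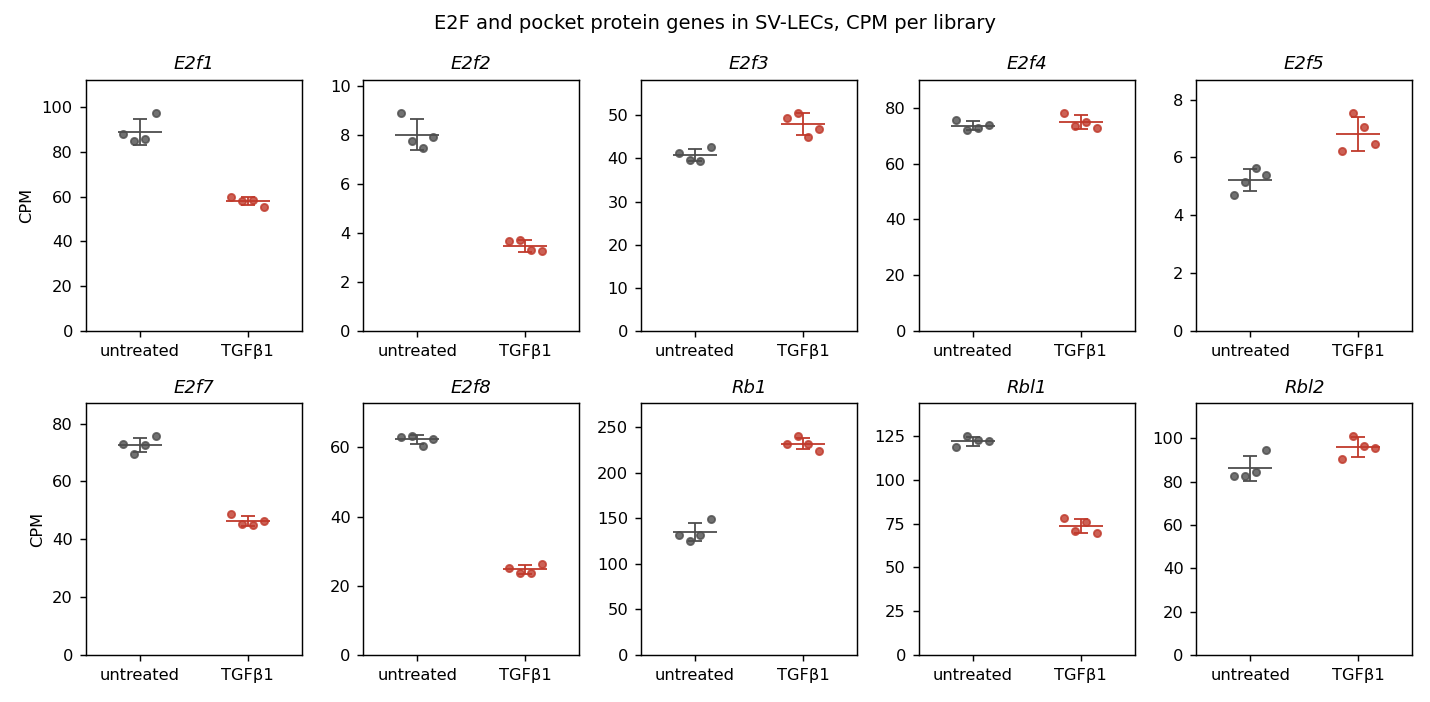
CPM of each gene in each library (y axis from 0, a scale of its own per panel) for 4 untreated (grey) and 4 TGFβ1-treated (red) libraries, with mean and SD as line and bars. Points of the groups are apart in 8 panels and overlap for E2f4 and Rbl2.

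Many cell cycle genes, some E2F genes among them, are known to carry E2F sites near their start. RefSeq promoter windows on GRCm38.p6, from 250 bases before a start site to 50 after it, were at hand for 7 of the 10 genes, in 9 windows. They were searched on both strands for the E2F letters TTTCCCGC, TTTGGCGC, TTTGCCGC and TTTCGCGC and for TTTGAA, the letters of the CHR element of late cell cycle genes. No matches overlapped. E2F letters lay in 4 of the 9 windows, those of E2f2, E2f3, E2f7 and Rbl1, and in 2.26% of all 32851 windows. TTTGAA lay in 4 of the 9 windows, those of E2f2, E2f3, E2f8 and Rbl2, and in 17.9% of all windows. The stretches below show the E2F letters of E2f2, E2f3, E2f7 and Rbl1, and TTTGAA of E2f3 and of E2f8, the gene that fell the most. Letters are 5′ to 3′ along the gene, and capitals mark matches, which read as the reverse complement where the match is on the other strand.

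E2f2, chr4:136172294-136172323, plus strand: cgaatttggcggcatatagTTTGGCGCtaa
E2f3, chr13:29986064-29986163, minus strand: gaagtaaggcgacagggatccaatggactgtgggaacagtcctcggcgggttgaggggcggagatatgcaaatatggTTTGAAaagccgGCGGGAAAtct
E2f7, chr10:110745211-110745310, plus strand: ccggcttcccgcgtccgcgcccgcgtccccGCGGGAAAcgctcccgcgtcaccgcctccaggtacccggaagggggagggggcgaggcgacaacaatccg
E2f8, chr7:48881597-48881696, minus strand: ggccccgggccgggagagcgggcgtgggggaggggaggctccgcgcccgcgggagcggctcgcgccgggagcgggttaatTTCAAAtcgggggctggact
Rbl1, chr2:157204535-157204634, minus strand: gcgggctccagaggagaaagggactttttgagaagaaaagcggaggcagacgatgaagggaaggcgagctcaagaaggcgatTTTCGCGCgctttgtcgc

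With the start site counted as 0, the E2F letters began at base -18 in Rbl1, at -11 in E2f3, at -198 in E2f7 and at 39 in E2f2. TTTGAA began at -23 in E2f3 and at -20 in E2f8. The start site of this E2f2 window lies 120 bases before the gene's GENCODE 5′ end, so its match lies outside the GENCODE exons. TTTGAA of E2f2, not printed, lay in a second window whose start site is 8388 bases inside the gene. The E2f1 window lies wholly inside a GENCODE exon, with its start site 466 bases past the gene's 5′ end, and held no match. It does not show the E2f1 promoter. A match describes letters in these windows, and no binding was measured. E2f3, with E2F letters, rose, while E2f2, E2f7 and Rbl1, with the same kind of match, fell.

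**Figure D2:**
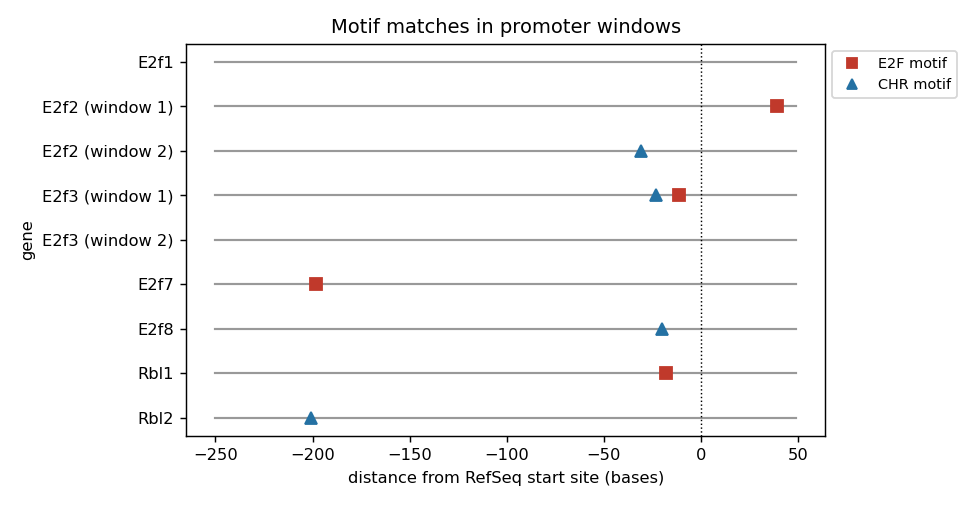
Distance in bases from the RefSeq start site (x axis) of E2F letters (squares) and CHR letters (triangles) in 9 windows of 7 genes (y axis). The matches of E2f3, E2f8 and Rbl1 and that of the second E2f2 window lie within 31 bases before the start, those of E2f7 and Rbl2 farther upstream, and that of the first E2f2 window after it.

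Among the activators, E2f1, which drives entry into S phase, lies on chromosome 2 of GRCm38 from 154559407 to 154569892. Its level was 87.7, 84.9, 85.5 and 97.4 CPM in the untreated libraries 1 to 4 and 59.9, 58.2, 58.5 and 55.3 CPM in the treated ones. Every treated library was below every untreated one, and untreated library 4 was the highest. The mean was 88.9 ± 5.79 CPM untreated and 58.0 ± 1.92 treated (SD, n = 4 each), a log2 fold change (treated over untreated) of -0.62 (standard error, SE, 0.0552, edgeR FDR = 4.27e-28).

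E2f2 (chromosome 4, 136172394 to 136196057), a close relative of E2f1, had the lowest level per length of the E2F genes. It had 8.91, 7.74, 7.47 and 7.91 CPM untreated and 3.68, 3.70, 3.30 and 3.26 CPM after TGFβ1. The groups were far apart, and the log2 fold change was -1.20 (SE 0.119, edgeR FDR = 2.35e-24), a fall of the mean from 8.01 ± 0.631 to 3.48 ± 0.238 CPM (SD, n = 4).

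E2f3, the third activator (chromosome 13, 29906575 to 29986063), went the other way. It had 41.2, 39.7, 39.5 and 42.6 CPM untreated and 49.4, 50.6, 44.9 and 46.8 CPM treated. The rise was small, yet the groups did not overlap. The log2 fold change was 0.23 (SE 0.0557, edgeR FDR = 4.97e-05), from 40.8 ± 1.45 to 47.9 ± 2.58 CPM (SD, n = 4). The counts do not part the long and short forms of E2f3, which start at different promoters.

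Of the repressors, E2f4 (chromosome 8, 105297663 to 105305370) had 75.8, 71.9, 72.8 and 74.0 CPM untreated and 78.3, 73.6, 75.0 and 72.7 CPM treated. The groups overlapped. The log2 fold change was 0.02 with a 95% confidence interval of -0.07 to 0.11 (FDR = 0.636 from edgeR), and its sign turned when libraries were scaled by total counts (-0.04).

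E2f5, the other repressor (chromosome 3, 14578641 to 14606309), rested on 98 to 167 counts per library. It had 4.72, 5.15, 5.63 and 5.38 CPM untreated and 6.22, 7.55, 7.04 and 6.48 CPM treated. All treated libraries were higher, and the rise of 30.5% was a log2 fold change of 0.38 (SE 0.111, edgeR FDR = 0.000869).

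The atypical factors E2f7 and E2f8, which repress E2F target genes including E2f1 in S phase and G2, were both lower. E2f7 (chromosome 10, 110745439 to 110787384) had 72.9, 69.6, 72.5 and 75.6 CPM untreated and 48.7, 45.3, 44.9 and 46.2 CPM treated, or -0.65 as log2 fold change (SE 0.0501, edgeR FDR = 1.05e-37). E2f8 (chromosome 7, 48866429 to 48881596) had 63.1, 63.2, 60.5 and 62.3 CPM untreated and 25, 23.7, 23.8 and 26.2 CPM treated. The libraries of each group lay close together, and its log2 fold change of -1.33 (SE 0.0542, edgeR FDR = 8.96e-135) was lower than that of all but 3.78% of genes tested. The 95% confidence intervals were -0.75 to -0.55 for E2f7 and -1.44 to -1.23 for E2f8. On the opposite strand 11.2% of the E2f8 exon bases belong to Gm2788, which had a mean of 0.857 CPM untreated and 0.662 treated.

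The pocket proteins moved in different directions. Rb1, the retinoblastoma gene (chromosome 14, 73183673 to 73325822), had 132, 125, 132 and 149 CPM untreated and 231, 240, 231 and 224 CPM treated. All treated libraries lay far above all untreated ones. The mean rose from 135 ± 10.3 to 232 ± 6.42 CPM (SD, n = 4), or 0.78 as log2 fold change (SE 0.0528, edgeR FDR = 1.79e-48). Of its exon bases 14.9% are shared with Rcbtb2 and Lpar6 on the opposite strand, which were also higher, with log2 fold changes of 0.18 and 0.92 and means of 26.4 and 13.9 CPM untreated. The study made its libraries with a stranded kit, but whether strand was used in counting is not given in the sources used here. The part of Rcbtb2 and Lpar6 reads in the rise of Rb1 was not tested.

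Rbl1 (chromosome 2, 157145893 to 157204534), whose p107 is made mostly in cycling cells, fell. It had 119, 125, 123 and 122 CPM untreated and 78.5, 71.1, 75.9 and 69.5 CPM treated. The groups were clearly apart, and the log2 fold change was -0.73 (SE 0.0487, edgeR FDR = 8.00e-50).

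Rbl2 (chromosome 8, 91070057 to 91123844), whose p130 is the main pocket protein of resting cells, had 82.5, 82.7, 84.4 and 94.7 CPM untreated and 90.3, 101, 96.4 and 95.5 CPM treated. Untreated library 4 lay above treated library 1, so the groups overlapped. The log2 fold change was 0.16 (SE 0.0559, FDR = 0.0073 from edgeR's likelihood ratio test). Scaled by total counts it was 0.09 and no longer significant (FDR = 0.14 from edgeR), and over all alternatives the FDR ranged from 9.63e-05, without untreated library 4, to 0.14. On the opposite strand 21% of its exon bases belong to Aktip and Gm45464, and Aktip fell by 0.40 on the log2 scale. The part of Aktip reads in the value of Rbl2 was not tested.

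**Figure D3:**
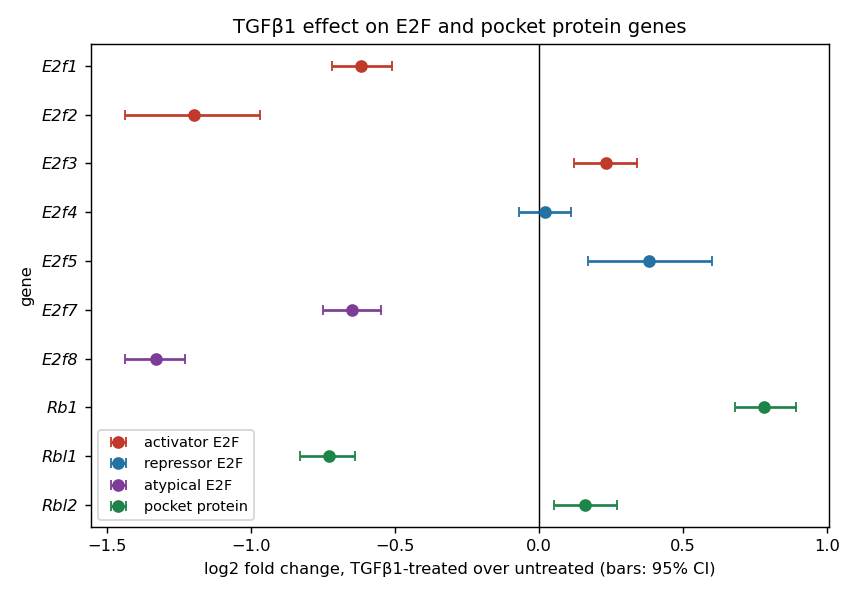
Log2 fold change of each gene (y axis), TGFβ1-treated over untreated, with its 95% confidence interval (n = 4 libraries per group), coloured by class. E2f8 and E2f2 lie lowest at -1.33 and -1.20, Rb1 highest at 0.78, and the interval of E2f4 spans 0.

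Genes can be compared with each other only per length, so CPM were divided by the exon length of each gene. In this unit (RPKM, CPM per kilobase of exon), the untreated order was E2f4 (30 ± 0.687, SD, n = 4), E2f1 (28.2 ± 1.83), E2f8 (11.4 ± 0.231), E2f7 (8.07 ± 0.272), E2f3 (7.51 ± 0.268), E2f5 (2.93 ± 0.217) and E2f2 (1.64 ± 0.129). E2f4 and E2f1 overlapped in their libraries, as did E2f7 and E2f3. After TGFβ1 the order was E2f4 (30.6 ± 1.00), E2f1 (18.4 ± 0.608), E2f3 (8.83 ± 0.476), E2f7 (5.14 ± 0.190), E2f8 (4.53 ± 0.217), E2f5 (3.83 ± 0.332) and E2f2 (0.714 ± 0.0487), and no neighbours overlapped. Among these 7 genes, E2f8 thus went from the third to the fifth place, and E2f4 stood alone at the top. The E2f6 gene, not ranked here, had 4.82 ± 0.182 RPKM after TGFβ1, above E2f8. Lengths join the exons of all annotated forms of a gene, so the places also depend on the annotation.

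The summed level of the 7 E2F genes went from 89.8 ± 2.74 to 72.0 ± 1.76 RPKM (SD, n = 4). Within this sum the repressors E2f4 and E2f5 went from 36.7% ± 0.811 to 47.8% ± 0.437, the atypical factors from 21.7% ± 0.363 to 13.4% ± 0.535, and the activators from 41.5% ± 1.11 to 38.8% ± 0.548. Among these 7 genes, E2f4 and E2f5 made up the largest class in all treated libraries (47.5% to 48.4%). The activators held that place in all untreated ones (40.8% to 43.2%). This depends on how the classes are drawn. Joined with the atypical repressors E2f7 and E2f8, E2f4 and E2f5 would exceed the activators in both groups. The summed level of E2f4 and E2f5 itself changed little, from 33 ± 0.574 to 34.4 ± 0.879 RPKM (SD, n = 4). E2f6, a repressor outside these 7 genes, had 7.02 ± 0.3 RPKM untreated and 4.82 ± 0.182 treated (SD, n = 4). Counted with E2f4 and E2f5 (mean 33 RPKM untreated), it would place the repressors above the activators (37.3) in untreated cells too. These shares are descriptions of RNA and were not tested.

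For the pocket proteins the untreated levels per length were 22.4 ± 1.71 for Rb1, 20.4 ± 0.411 for Rbl1 and 11.4 ± 0.769 for Rbl2 (SD, n = 4). After TGFβ1 they were 38.5 ± 1.07 for Rb1, 12.7 ± 0.600 for Rbl2 and 12.3 ± 0.696 for Rbl1, and the last pair overlapped. Rb1 made up 41.3% ± 1.43 of the pocket protein RNA before and 60.6% ± 0.424 after, Rbl1 37.7% ± 1.83 and 19.4% ± 1.08, and Rbl2 21% ± 0.472 and 20.0% ± 0.813. The ratio of Rb1 to Rbl1 per length went from 1.10 ± 0.0930 to 3.14 ± 0.191, so near equal levels became a clear excess of Rb1.

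**Figure D4:**
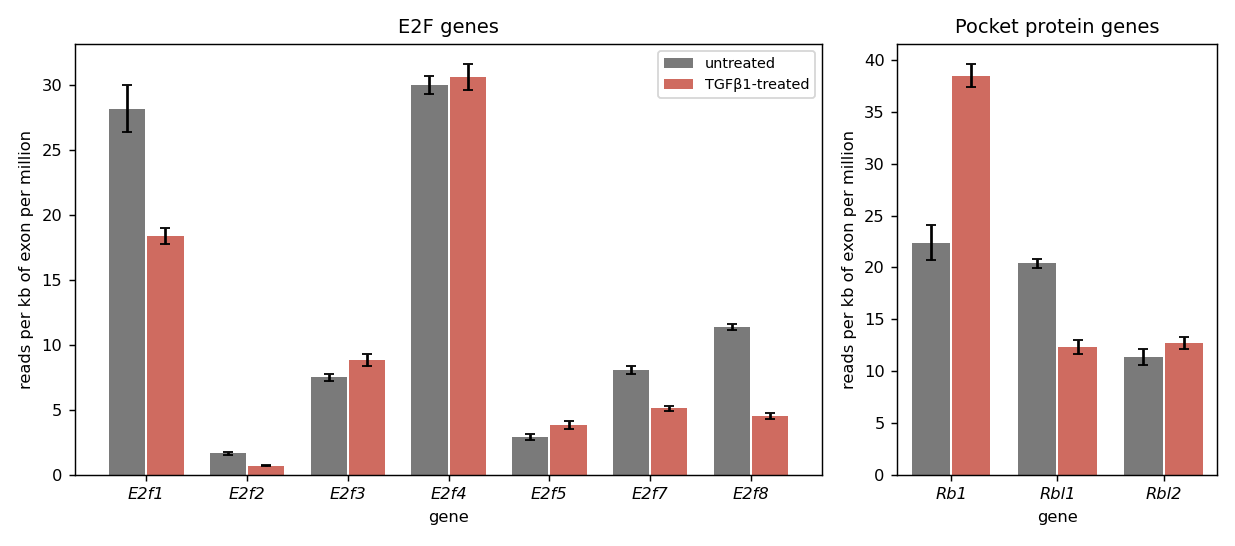
Mean level per length (y axis, RPKM, bars from 0) of the E2F genes and of the pocket protein genes in 4 untreated (grey) and 4 TGFβ1-treated (red) libraries, with SD as error bars. E2f4 stays near 30 in both groups while E2f1 drops to 18.4 and Rb1 climbs to 38.5.

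Over the 8 libraries, the 3 tested genes with log2 CPM profiles nearest to that of E2f1, by Euclidean distance after centring each gene, were Dtl (0.108), Crybg1 (0.123) and Gm13394 (0.131). Their log2 fold changes were -0.64, -0.62 and -0.60. Those nearest to Rb1 were Ston1 (0.102), Dixdc1 (0.103) and Mybl1 (0.106), with log2 fold changes of 0.74, 0.77 and 0.80. The 8 libraries form only 2 groups, and nothing is drawn here about shared function or control.

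The DP proteins pair with E2Fs to bind DNA, and E2f6 is a repressor that pocket proteins do not bind. Of these 3 genes 1 was higher and 2 lower, with a median log2 fold change of -0.55. For this list and those below, the comparison is with all genes tested. Of these 75.6% passed the FDR, in near equal parts higher and lower, with a median log2 fold change of -0.01. Tfdp2 fell from 247 ± 6.46 to 129 ± 3.58 CPM (log2 fold change -0.94, FDR = 1.24e-114 from edgeR) and E2f6 from 39.7 ± 1.70 to 27.3 ± 1.03 CPM (-0.55, SD, n = 4). Tfdp1 was slightly higher (log2 fold change 0.08, edgeR FDR = 0.0392), a call lost when libraries were scaled by total counts (0.02, FDR = 0.703 from edgeR).

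Cyclins and their kinases phosphorylate the pocket proteins, D-type cyclins first. Of 10 genes for them, 3 were higher (2 with total counts, where Ccnd3, named because of its values, was not called), 5 lower and 2 not significantly changed, with a median log2 fold change of -0.12 against -0.01 over all genes tested. Ccnd2 rose from 46.1 ± 2.99 to 199 ± 12.3 CPM (SD, n = 4, log2 fold change 2.11) and Ccnd1 by 1.17 on the log2 scale. Ccna2, the cyclin of S phase and G2, fell from 243 ± 6.07 to 53.4 ± 3.78 CPM (-2.18), and its partner Cdk1 fell by 1.40. The genes not called were Ccne1 and Ccne2 (0.13 and -0.04), the partners of Cdk2 in late G1, which are named because of their values.

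CDK inhibitors keep the pocket proteins active. Of 7 genes, 2 were higher, 4 lower and 1 not called, with a median log2 fold change of -0.83. Cdkn1a, which encodes p21, rose from 746 ± 48.3 to 1640 ± 56.0 CPM (SD, n = 4, log2 fold change 1.14). Cdkn2c, Cdkn2d and Cdkn1c fell, with log2 fold changes of -1.61, -1.43 and -0.93. The other higher gene, named because of its values, was Cdkn2b, an inhibitor known as a TGFβ target, at 0.53, from 94.0 ± 10.8 to 136 ± 19.9 CPM. The direction of the group as a whole was therefore mixed.

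MuvB is the core that p130 or p107 and E2f4 join to form the DREAM repressor, and that Mybl2 and Foxm1 join to activate genes of G2 and mitosis. Of 8 genes, with the DREAM kinase Dyrk1a, 7 were lower, none higher, and the median log2 fold change was -0.72. The activators fell the most, Foxm1 from 190 ± 3.58 to 53.9 ± 1.67 CPM (-1.82) and Mybl2 from 49 ± 3.43 to 16.1 ± 1.29 CPM (-1.60, SD, n = 4). Of the core subunits, Lin54 and Lin9 fell by 1.04 and 1.02. Lin37, named because of its values, was not called at -0.20 (FDR = 0.0668 from edgeR) and was lower when libraries were scaled by total counts (FDR = 0.0138 from edgeR).

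Smad3 is known to join E2f4 or E2f5 and p107 in repressing Myc. Of the 4 genes Smad2, Smad3, Smad4 and Myc, 2 were higher, 1 lower and 1 not called, with a median log2 fold change of 0.16. Smad3 rose from 84.7 ± 4.08 to 139 ± 5.21 CPM (log2 fold change 0.71), Smad4 fell from 147 ± 2.29 to 109 ± 3.31 CPM (-0.43, SD, n = 4), and Smad2 was not significantly changed (0.00, FDR = 0.947 from edgeR). Myc itself was higher, from 72.2 ± 10.4 to 90.8 ± 4.43 CPM (log2 fold change 0.33, edgeR FDR = 0.000193).

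Of 24 genes listed as E2F targets at the G1/S border, 22 were lower, 1 was higher and 1 was not called, with a median log2 fold change of -0.56. The largest falls were those of Gins1 (-1.49) and Mcm5 (-1.35), parts of the replication helicase, of the checkpoint kinase Chek1 (-1.23) and of Cdc45 (-1.04). The exceptions, named because of their values, were Orc1, which rose by 0.52, and Cdc25a at -0.01. All 16 genes listed as late cell cycle genes with CHR elements were lower, with a median of -1.89 and a range of -2.43 to -1.41. Ccnb2 fell from 139 ± 6.96 to 25.7 ± 2.16 CPM (-2.43), Kif11 by 2.27, and Cenpf and Aurkb had log2 fold changes of -2.24 and -2.18. Among the E2F and pocket protein genes, the falls of E2f1, E2f7 and Rbl1 (-0.73 to -0.62) lay near the median of the G1/S list, while E2f8 and E2f2 (-1.33 and -1.20) lay between the medians of the G1/S and the late list.

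**Figure D5:**
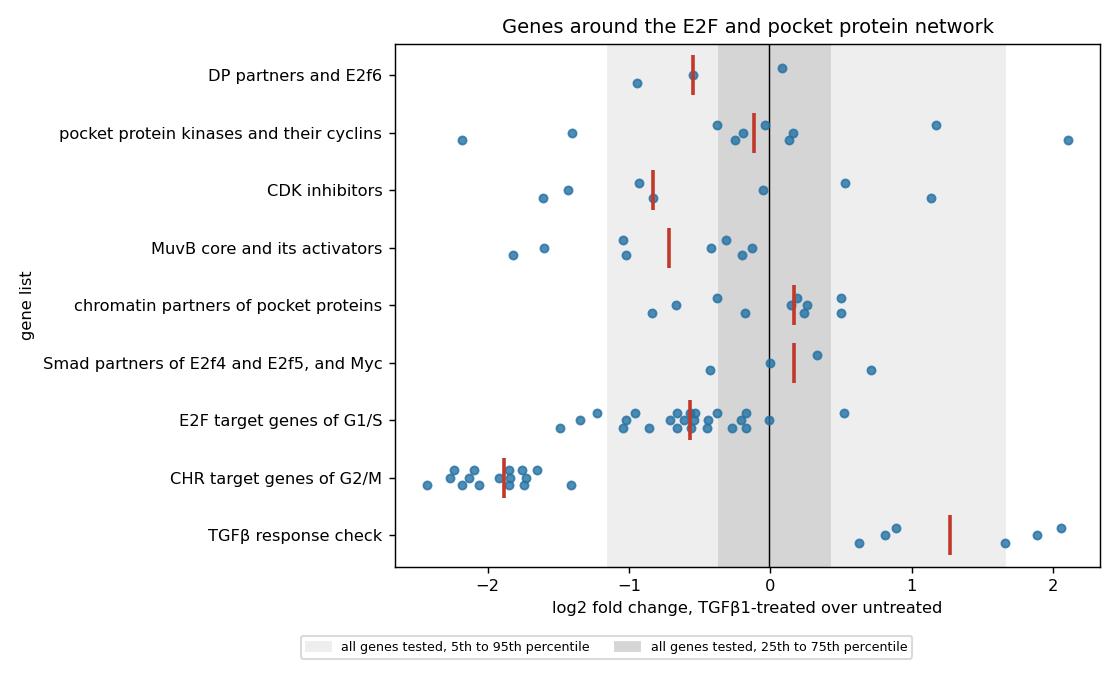
Log2 fold change (x axis) of each tested gene (point) in 9 gene lists (y axis), with the list median as a red line and the middle ranges of all genes tested as grey bands. All points of the late cell cycle list lie at -1.41 or below.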

How the data were processed

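SV-LEC RNA was measured in 4 untreated and 4 TGFβ1-treated libraries. The authors deposited raw counts of reads per gene, aligned to GRCm38, and the submitters' processing notes list bcl2fastq 2.20.0.422, STAR 2.7.3a and featureCounts 1.5.1. The study names a stranded mRNA library kit, but the annotation release and the strand setting of the counting are not given in the sources used here. Tests ran on these counts with edgeR 4.0.16 in R 4.3.3: filterByExpr, TMM, estimateDisp, glmFit and glmLRT, the test the study names, with Benjamini-Hochberg FDRs over 13818 genes and a threshold of 0.05. Standard errors came from the information matrix of each fit. Within groups, chi-square per degree of freedom over genes with at least 20 counts was 2.37 to 7.84 in 12 pairs of libraries, so none was deposited in duplicate.

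Exon lengths, positions and overlaps came from GENCODE M21, which matched 55144 of 55471 identifiers, and promoter windows from RefSeq (GRCm38.p6). E2f4, E2f5 and Rb1 had no window. Protein sequences were not used here, so the planned count of a protein motif was not made. The genes and lists were chosen with earlier results of these data known. The text names all 10 genes, up to 4 genes per list with the largest absolute log2 fold change, and the 3 genes with profiles nearest to E2f1 and to Rb1. Genes named because of their values are marked so. Alternatives were the quasi-likelihood test, DESeq2 1.42.0, its size factors, total counts, other filters, an FDR of 0.01, a prior count of 2, a replicate block and each library left out. The scripts were tested on simulated data. A floor of 3 counts in a library was 0.113 to 0.162 CPM, and floors cover counting error only.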

Additional observations from a re-analysis of the deposited data

Results flagged for a closer look

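Rbl2 in untreated library 4, at 94.7 CPM, stood apart from the other untreated libraries, which lay between 82.5 and 84.4 CPM. The gap to the nearest library was 0.846 of the group's range, above the 95% critical value of Dixon's test for 4 samples. It was the only such case in 20 groups of 4 libraries, 2 for each of the 10 genes, and chance gives about 1 in 20. The same library was the highest untreated one in 5 of the 10 genes. Without it the log2 fold change of Rbl2 was 0.20 (FDR = 9.63e-05 from edgeR) instead of 0.16, and over all alternatives that FDR ranged from 9.63e-05 to 0.14.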

How the results depend on the processing

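All alternatives, including each library left out in turn, kept 5 of the 10 genes lower, and all but total-count scaling kept 4 higher. With total counts, which moved the median log2 fold change of all genes by -0.067, 3 were higher, and Rbl2 (0.09) was not called. E2f4, not called under any setting, changed sign with total counts (-0.04) and without the filter on low counts (-0.01). Leaving out that filter moved log2 fold changes by a median of -0.031 from the main fit. The cause of these changes was not tested. The summed level of the pocket protein genes in treated libraries was 62.0 RPKM with total counts, instead of 63.5. The counts over all genes moved by less than 1.5 times. Replicate numbers did not pair the libraries: the deviations of same-numbered libraries from their group means had correlations of -0.193 to -0.0336, and none correlated best with its own number. With the replicate block, 4 genes were higher and 5 lower, as without it, and 5075 of all genes were higher and 5077 lower, against 5198 and 5251. E2f5 and E2f2, with the fewest counts, had the widest confidence intervals. One cell line, 1 dose and 1 time, with technical replicates, limit what these values cover.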

Other observations

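Pocket proteins repress genes together with chromatin partners, enzymes among them. Of 10 such genes tested, 6 were higher and 4 lower after TGFβ1, with a median log2 fold change of 0.17. Among all genes tested 75.6% passed the same FDR, with a median log2 fold change of -0.01. The number of genes that changed, in mixed directions, is therefore not particular to this list. Rbbp8, which encodes the repair factor CtIP, fell from 103 ± 1.25 to 57.5 ± 2.43 CPM (SD, n = 4, log2 fold change -0.84), and Suv39h1, a histone H3 lysine methyltransferase, fell from 84.6 ± 3.42 to 53.3 ± 2.71 CPM (-0.67). Smarca2, an ATPase of the SWI/SNF remodelling complex, rose by 41.9% and the deacetylase gene Hdac1 from 55.5 ± 3.04 to 78.5 ± 2.22 CPM, both with a log2 fold change of 0.50. The rise of Arid4b, named because of its values (0.15), was not called when libraries were scaled by total counts (0.08, FDR = 0.0952 from edgeR's likelihood ratio test).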
